A study of Mus musculus with 5 samples.

Results

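The genes described here code for the translation initiation factors of the eIF1, eIF2, eIF3, eIF5 and eIF6 groups. They were chosen by symbol and gene type: every gene with an mRNA-seq value whose symbol begins with Eif1, Eif2, Eif3, Eif5 or Eif6 and which GENCODE release M21 calls protein-coding. This gave 35 genes of the 18349 with a value, or of the 13407 among these that are protein-coding. The eIF4 genes, the 4 eIF2 kinase genes (Eif2ak1 to Eif2ak4), 3 pseudogenes and the non-coding Eif2c5 were left out. By complex, 5 genes belonged to eIF1 and eIF1A, 6 to eIF2 and proteins like it, 5 to eIF2B, 14 to eIF3, 2 to eIF5 and eIF5B, 2 to eIF5A and 1 to eIF6.

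The study measured where PABPC1, a cytoplasmic protein that binds poly(A) tails, touches RNA in MEL cells, a mouse erythroleukemia line, all marked day 0 in the labels. PABPC1 CLIP-seq of 3 samples was set beside mRNA-seq of poly(A) RNA from 2 samples of the same line. In CLIP-seq, ultraviolet light (400 mJ/cm2 here) joins protein to RNA, an antibody pulls the protein down, and the RNA pieces joined to it are sequenced as tags. The deposited peaks, deletion sites and mRNA levels are each 1 pooled set for all samples of their kind, so the values carry no replicate error and none is tested. Intervals are exact 95% intervals and cover counting error only. Of 7 erythroid markers, Klf1, Epor, Gata1, Tal1, Hba-a1 and Hbb-bs stood at 428, 225, 211, 40.3, 38.3 and 19.6 RPKM and Slc4a1 at 0.122 RPKM. The fibroblast genes Col1a1 and Pdgfra stood at 0.873 and 0.211 RPKM, Col1a2, Col3a1 and Fn1 were not listed, and Thy1 stood at 65.3 RPKM.

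As background, initiation begins when eIF1, eIF1A, eIF3 and eIF5 gather on the small ribosomal subunit with eIF2, which carries the initiator tRNA. The complex is placed at the capped end of the mRNA by the eIF4 factors and scans to a start codon, eIF5 sets off GTP hydrolysis by eIF2, eIF2B recharges eIF2 with GTP, and eIF5B joins the large subunit. PABPC1 sits on the poly(A) tail and binds eIF4G, which links both ends of the mRNA. The question put to the data was where PABPC1 lay on the mRNAs of these factors themselves, and how much of it for their level.

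All 35 genes held at least 1 peak in an exon, where 96.6% of all 10211 protein-coding genes with an RPKM of at least 1 did. RPKM is the mRNA level in reads per kb of gene, scaled to library size. The 35 genes held 332 exonic peaks, and the heights of these peaks summed to 34045 tags. The height of a peak is the authors' score, read here as tags at its highest point. In 34 of the 35 genes the tallest peak reached 74 tags, against 55.3% of all protein-coding genes and, within the quartiles of the 35 genes' RPKM, 65.1 and 339.7, it did so in all 17 factor genes and in 92.0% of all genes. Deletions can be left where reverse transcription passes a cross-linked base. They marked 77 exonic bases in 27 of the 35 genes (77.1%, against 37.0% of all protein-coding genes). In the 3′ UTR, 25 genes held a site, against 35.0%. A gene's deletions are summed over its sites, so a tag deleted at adjoining bases can count more than once. Within those quartiles, a deletion site was found in 13 of the 17 factor genes (76.5%) and in 72.2% of all 1607 protein-coding genes. At a similar mRNA level the shares thus lay close together.

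The sites that carried most deletions are shown first. Whether each of them marks a contact of PABPC1 was not tested. Each run of 29 bases was read 5′ to 3′ from the annotated GENCODE M21 transcript on mm10, with the leading site as its middle base, and capitals mark the deleted bases of the run. The first 4 genes held the sites with the most deletions.
Eif1ax 3′ UTR: ggtccttaagactgTttaagacaaaaagc
Eif5a CDS: aaggccatggcaaAAtaaccggcttccag
Eif3a 3′ UTR: gttaaaaaaaaaAAActaaaaaataaaaa
Eif3g CDS: ccatcaacgaattaAtaagacatctgcta
The next 5 lines give the leading site of the other genes with many deletions, in falling order of the gene's total, leaving out Eif1a, whose sites are in all counts.
Eif3c CDS: caaaataatgcaaAAtactgatcctcact
Eif3b 3′ UTR: caggttggatgtggAAataaaagcaaccc
Eif1b 3′ UTR: tgttgcggcttaacAataaaaagaaagtg
Eif3l CDS: gctatggggatttcTttatccgacagatc
Eif2s2 3′ UTR: gtgattgttctgaaAtaccttgcaagata
In Eif3b and Eif1b the deleted base, or the last of the 2, is the first A of the poly(A) signal AATAAA. The Eif3g and Eif5a sites lie at the stop codon TAA, as listed on its last base in Eif3g and on the 2 bases before it in Eif5a. All 9 sites lie in a row of equal bases, 2 in Eif3g and Eif1b, 4 in Eif5a and Eif3c, 12 in Eif3a and 3 in the others, and within such a row the aligned position of a deletion is arbitrary. For Eif3g the row ends the stop codon, and for Eif5a it ends just before it. Within 20 nt, the leading sites of Eif1ax, Eif2s2, Eif3c, Eif3g, Eif3l and Eif5a hold none of 4 hexamers searched on the transcript strand. These were the poly(A) signal AATAAA, its common variant ATTAAA, the hexamer ATATAA and the plain run AAAAAA.

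Among the eIF3 genes, which code for the largest initiation factor, mRNA levels were the highest of the complexes with more than 2 genes, with a median of 448 RPKM, against 83.2 RPKM for the 21 other factor genes and 19.6 RPKM for all protein-coding genes. Eif3g, an RNA-binding subunit of eIF3, had the highest level of the 35 (1195 RPKM) and also the tallest peak. That peak, at chr9:20894337-20894447 on the minus strand, was 5327 tags high and spanned the stop codon and the whole 78-nt 3′ UTR. It made up 88.5% of the gene's summed height of 6018 tags (5867 to 6172), the 9th largest of all protein-coding genes. The 4 peaks of Eif3g thus differed widely, the next tallest being 301 tags high.

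The site listed on the last base of the Eif3g stop codon, chr9:20894427, was deleted in 187 of 4981 tags, or 3.75% (3.24 to 4.32). Its deletion count was the second highest of the 35 genes after the coding site of Eif5a, and its deleted share was low, against a median of 9.83% over the 77 exonic sites. The other 2 sites of Eif3g, in the 3′ UTR, were deleted in 10 of 517 tags and 11 of 2624 tags. All 3 shares lay below that median, and 0.419% was the lowest of the 77 sites.

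The other eIF3 subunits were split between the ring of 8 subunits with PCI or MPN domains (Eif3a, Eif3c, Eif3e, Eif3f, Eif3h, Eif3k, Eif3l and Eif3m) and the rest (Eif3b, Eif3d, Eif3g, Eif3i and the loosely bound Eif3j1 and Eif3j2). Their median mRNA level was 523 RPKM in the ring and 360 RPKM in the rest, and the ranges overlapped (124 to 809 RPKM and 1.23 to 1195 RPKM). Eif3a, the largest subunit and the scaffold of the ring, had 22 peaks with a summed height of 1425 tags over long exons, or 278 tags per kb. Its tallest peak, 327 tags, lay in the 3′ UTR at chr19:60761645-60761857. Another peak, of 264 tags, lay early in its coding sequence (CDS) at chr19:60782163-60782358.

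Eif3a had 415 deletions, nearly all in 1 run of 3 bases. At chr19:60761826, 135 of 208 tags were deleted, or 64.9% (58.0 to 71.4), and its 2 neighbours were deleted in 65.5% and 57.6%. With shares this high at adjoining bases, some tags were counted at more than 1 of them. The total of Eif3a is thus not a number of separate tags. Outside this run, no site of the 35 genes with at least 100 tags had a share above the 37.7% of Eif1ax. The signal of Eif3a was thus spread over many low peaks, and its deletions were not.

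Eif3c, another large subunit of the ring, had a summed height of 1578 tags, and a coding run of 2 bases at chr7:126557193-126557194 carried 44 deletions at each, 15.4% and 15.3% of the tags. Eif3b, a scaffold of the other eIF3 module, had a summed height of 803 tags, and its leading site lay 21 nt before the transcript end with 77 of 424 tags deleted (18.2%). Eif3l, a ring subunit, differed in that all 3 of its sites were coding and its tallest peak, 516 tags, was coding too. The leading Eif3l site, chr15:79093388, was deleted in 83 of 449 tags (18.5%, 15.0 to 22.4) and lies 68 nt before the end of the stop codon.

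Eif3f, Eif3h and Eif3k had summed heights of 1429, 1348 and 1409 tags, and each had its tallest peak in the 3′ UTR and over the stop codon, at 830, 837 and 978 tags. These 3 high peaks held few deletions, 25 on Eif3f, 73 on Eif3h and 22 on Eif3k. Eif3d, which in human cells can bind the cap, and Eif3i, a WD-repeat subunit, had summed heights of 824 and 642 tags with 41 and 45 deletions. Eif3m had 321 tags and 29 deletions. Eif3e had 342 tags and no deletion site.

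Eif3j1 and Eif3j2, which are 99.4% identical over 2379 nt of transcript, stood at 1.23 and 28.6 RPKM. Their summed heights ran the other way, 118 and 75 tags. Reads from genes this alike may have been split or lost, and which gene was the source was not tested.

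**Figure D1:**
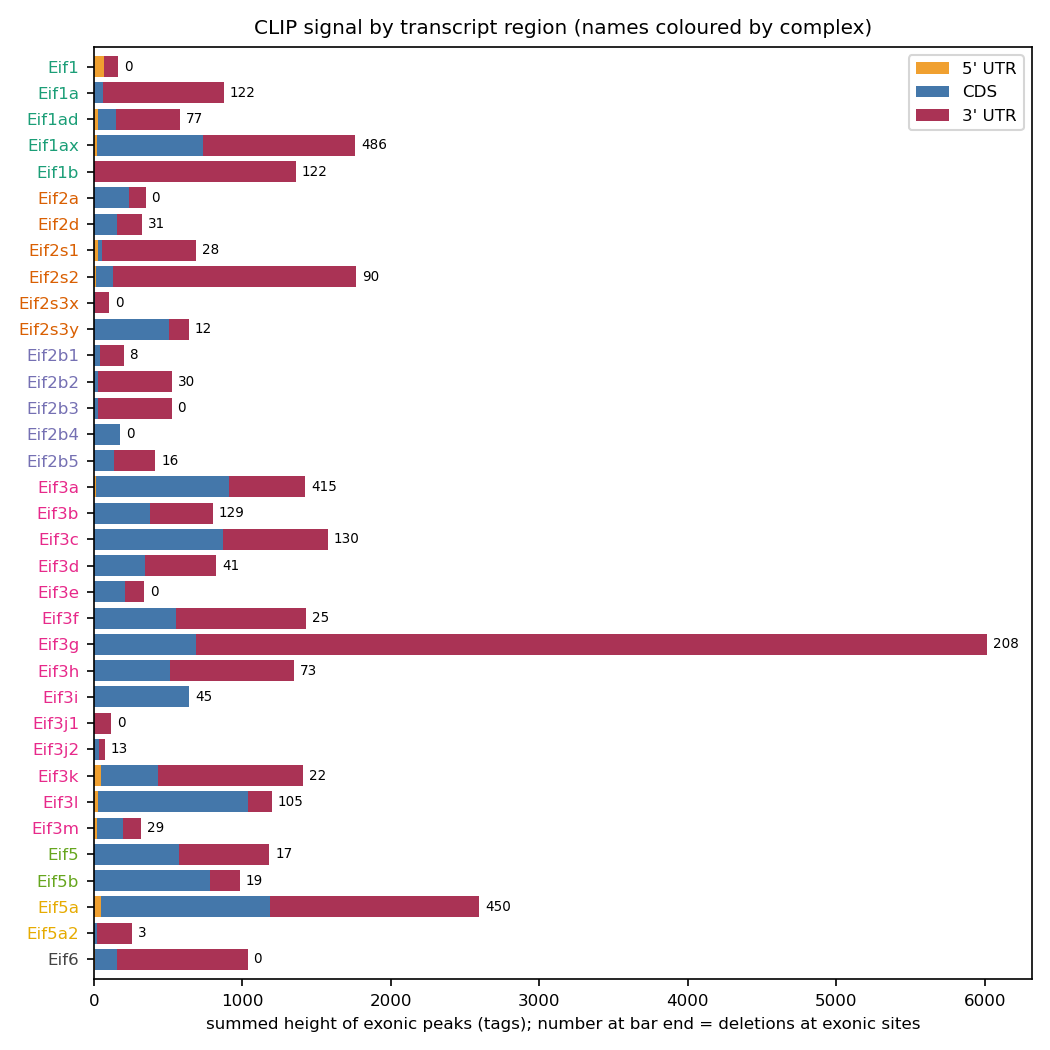
Summed height of exonic peaks (tags) for each of the 35 genes, split into 5′ UTR, CDS and 3′ UTR, with the deletions at exonic sites printed at the bar's end. Eif3g stands far above the rest at 6018 tags, 5327 of them in the 3′ UTR. The CDS holds more than the 3′ UTR in Eif2a, Eif2b4, Eif2s3y, Eif3a, Eif3c, Eif3e, Eif3i, Eif3l, Eif3m and Eif5b.

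The eIF1 and eIF1A genes code for the small factors that hold the scanning ribosome open and read the start codon. Eif1ax, the X-linked eIF1A gene, held the most deletions of the 35 genes, 486, at an mRNA level of only 93.9 RPKM. They gathered at 2 places. In the 3′ UTR, 203 nt past the stop codon at chrX:159385616, 173 of 459 tags were deleted (37.7%, 33.2 to 42.3). In the CDS, at the adjoining bases chrX:159377519-159377520, 133 of 438 tags (30.4%) and 136 of 495 tags (27.5%) were deleted. The peaks over these places were 762 and 527 tags high, and the peak over its farthest site in the 3′ UTR was 72 tags high.

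Eif1a, an autosomal eIF1A gene, had 875 tags and 122 deletions at 6 sites, all in the 3′ UTR. Eif1b, close to eIF1 in sequence, was the only one of the 35 with a single peak. This peak, 1359 tags high, lay at the end of the 3′ UTR and held 1 exonic site, chr9:120495290, with 122 of 1310 tags deleted (9.31%, 7.79 to 11.0), 40 nt before the transcript end. Eif1, by contrast, had 164 tags in 3 peaks and no deletion site at 74.2 RPKM. Its transcript has 21 copies elsewhere in the annotation, taken as at least 90% identity over at least 200 nt, and 3 of these were listed at a higher RPKM. Eif1ad, a protein with an eIF1A-like domain, had 582 tags and 77 deletions.

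Among the eIF2 genes, which code for the carrier of the initiator tRNA, Eif2s2 (the beta subunit) stood out with 1765 tags, or 694 tags per kb, at 70.5 RPKM. Of that height 92.7% lay in the 3′ UTR, and its 4 sites had low deleted shares, 2.90% to 6.47%. The alpha subunit gene Eif2s1, whose protein is phosphorylated under stress, had 690 tags at 110 RPKM. The X-linked gamma subunit gene Eif2s3x had 102 tags and no site at 15.2 RPKM, and its Y-linked partner Eif2s3y had 641 tags and 1 site at 66.4 RPKM, with 506 of those tags in the CDS. Eif2d and Eif2a, which can bring tRNA to the ribosome without eIF2, had 323 and 350 tags.

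The Eif2s2 and Eif2s3x values touch those of near-identical pseudogenes. Gm9892 is 99.5% identical to Eif2s2 over 992 nt and was listed at 265 RPKM with 430 tags. Gm2223 is 100% identical to Eif2s3x over 1350 nt and was listed at 467 RPKM with 82 tags. Of the 35 genes, 17 had such a copy and 7 had a copy at a higher RPKM (Eif1, Eif2s2, Eif2s3x, Eif3e, Eif3j1, Eif3m and Eif5a). No source used here says how reads that match several places were counted, so the RPKM of these 7 genes, and every ratio built on it, is uncertain.

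The 5 eIF2B genes, which code for the exchange factor of eIF2, had the lowest summed heights of the complexes with more than 2 genes, a median of 416 tags. None held a coding site or a 5′ UTR peak, and 3 held a site. Eif2b3 had 525 tags at 22.7 RPKM, of which 495 tags were 1 peak at the end of the mRNA without a deletion site. Eif2b2 also had 525 tags, at 58.7 RPKM, with 1 site of 30 deletions.

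Eif5a codes for the hypusine-bearing factor named for initiation and known for its part in elongation and termination. It had the second highest level of the 35 genes (949 RPKM), the second largest summed height (2596 tags) and 450 deletions. Its tallest peak, 1047 tags at chr11:69917421-69917502, covered the stop codon. The adjoining bases chr11:69917442-69917443, which end the last sense codon, were deleted in 198 of 582 tags (34.0%, 30.2 to 38.0) and 152 of 584 tags. The pseudogene Eif5al3-ps, 97.2% identical over 434 nt, was listed at 1020 RPKM with 360 tags. Its paralog Eif5a2 stood at 9.42 RPKM with 255 tags and 1 site of 3 deletions.

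Eif5, the partner that sets off GTP hydrolysis by eIF2, had 18 peaks summing to 1183 tags. Eif5b, the large-subunit joining GTPase, had 33 peaks, the most of the 35, summing to 983 tags with none above 176. Both its sites were coding, with 6 and 13 deletions. Eif6, which keeps the large subunit apart, had a peak of 849 tags at the transcript end within 1036 tags in all, and no deletion site. The 8 genes without an exonic site, Eif1, Eif2a, Eif2b3, Eif2b4, Eif2s3x, Eif3e, Eif3j1 and Eif6, thus included both genes of low signal and Eif6. Summed height is not scaled by length. Per kb of exon it was highest in Eif3g (5466 tags per kb), followed by Eif1b (1313), Eif3k (1311), Eif5a (1092) and Eif3h (1041), and lowest in Eif3j1 (21.8).

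**Figure D2:**
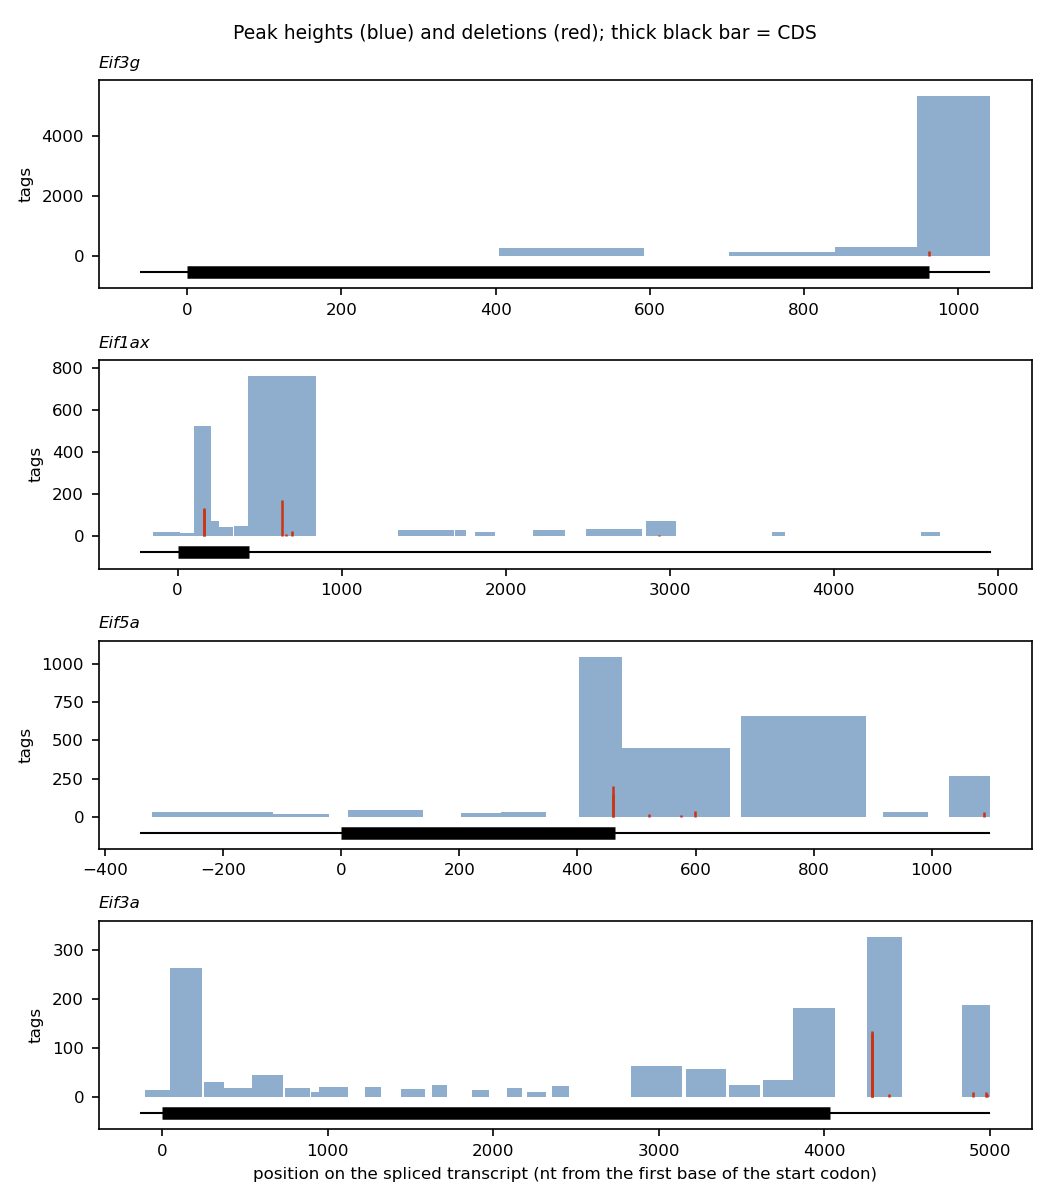
Peak heights (blue, tags) and deletions per site (red, tags) along the spliced transcripts of Eif3g, Eif1ax, Eif5a and Eif3a, in nt from the first base of the start codon, with the CDS as a thick black bar. Eif3g has 1 dominant peak over the stop codon, Eif1ax has a coding and a 3′ UTR peak of 527 and 762 tags, and Eif3a has many low peaks.

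By region, 97 of the 332 exonic peaks of the factor genes (29.2%, 24.4 to 34.4) had their midpoint in the 3′ UTR, against 55.3% of 74594 peaks of other protein-coding genes. The CDS held 66.9% of the factor genes' peaks and 42.1% of the others'. The exonic bases themselves were alike in make-up, with 45.0% 3′ UTR and 45.9% CDS in the factor genes against 43.4% and 48.1% in the others. Weighted by height, the 3′ UTR held 64.6% of the factor genes' signal, against 78.0% in the other genes, and the CDS 34.5% against 20.5%. The many coding peaks were thus mostly low. These shares were not compared at a similar mRNA level. The median level was 110 RPKM in the factor genes and 19.6 RPKM in the others.

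Of the 125 peaks of the eIF3 genes, 81.6% were coding, as were 64.8% of their exonic bases. Their 3′ UTRs were short, with a median of 168 nt, against 735 nt in the other factor genes and 963 nt in other protein-coding genes. In the 21 other factor genes 58.0% of 207 peaks were coding, while 36.6% of the exonic bases were. That share of peaks, too, was above the 42.1% of other protein-coding genes. A peak over a stop codon in front of a short 3′ UTR can have its midpoint on either side. The tallest peak covered the stop codon in 15 of 34 factor genes that could be placed (8 of 14 eIF3 genes), against 22.8% of 9524 protein-coding genes. It ended within 50 nt of the transcript end in 19 of 34, against 51.7%.

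The tallest peak lay in the 3′ UTR in 28 of the 35 genes (80.0%, against 90.2% of all protein-coding genes with a peak). Within the RPKM quartiles it did so in 14 of 17 factor genes (82.4%) and 87.0% of all genes. It was the most 3′ of the gene's peaks in 22, against 63.7% of all genes with a peak. The 7 genes with a coding tallest peak were Eif2b4, Eif2s3y, Eif3i, Eif3j2, Eif3l, Eif5a and Eif5b, and in Eif2b4, Eif3i and Eif5a that coding peak reached over the stop codon. A peak in the 5′ UTR was held by 11 of the 35 (31.4%, against 14.1% of all), and within the RPKM quartiles by 7 of 17 (41.2%, against 26.1% of all). In Eif1 it made up 69 of 164 tags.

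By plain count, deletion sites were more often in the 3′ UTR than peaks were: 61 of 77 (79.2%, 68.5 to 87.6), against 90.1% of 9632 sites of other protein-coding genes. The other 16 were coding (20.8%, 12.4 to 31.5, against 9.11%). No site lay in a 5′ UTR. With sites taken as independent, this allows a share of up to 3.90% by 3 counts of the total and 4.68% by the exact interval. Of the factor genes' peaks of at least 74 tags, 50.6% were in the 3′ UTR, which is nearer to the share of sites. By weight the order was reversed: the 3′ UTR held 61.03% of the factor genes' deletions and 64.6% of their summed height. The 2 shares are placed by unlike rules, height by peak midpoint and deletions by base. The Eif3g peak of 5327 tags thus counts as 3′ UTR, and 187 deletions inside it count as CDS. Counted in deletions, the CDS held 1070 of 2746 in the factor genes (39.0%) and 6.45% in the others. Adjoining sites, as in Eif5a and Eif1ax, can count the same tag more than once. Of these 1070 deletions, 350 were in Eif5a, 269 in Eif1ax and 187 in Eif3g, and without these 3 genes the share was 16.5%. A coding site was held by 9 of the 35 genes (25.7%, against 4.97% of all): Eif1ax, Eif3b, Eif3c, Eif3g, Eif3h, Eif3l, Eif3m, Eif5a and Eif5b. Within the RPKM quartiles 2 of 17 factor genes held one (11.8%), against 13.5% of all genes. Of the 9 genes, Eif3b, Eif3c, Eif3g, Eif3h, Eif3l and Eif5a lay above these quartiles and Eif5b below them. No comparison at a similar mRNA level was made there, so whether coding sites were more frequent in the factor genes at those levels is not known. Of the 16 coding sites, 4 lay within 10 nt of the end of the stop codon (in Eif3g, Eif3h and Eif5a), against 10.7% of 877 coding sites of other genes, whose share lies inside the interval for the factor genes, 7.27% to 52.4%.

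**Figure D3:**
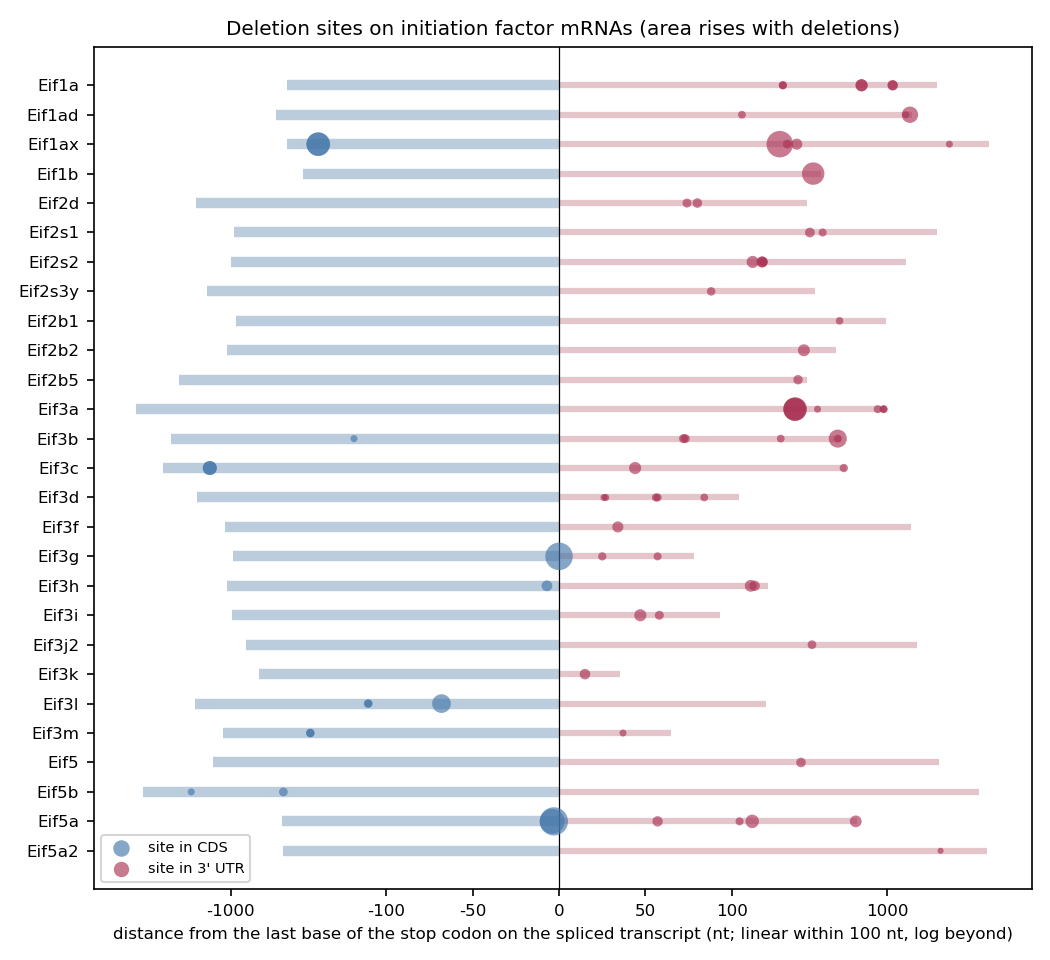
Exonic deletion sites of the 27 genes that hold one, by distance from the last base of the stop codon (nt, linear to 100 nt and log beyond), coding sites in blue and 3′ UTR sites in red, with area rising with deletions. The bars give the CDS and 3′ UTR of 1 transcript a gene. The large coding sites are those of Eif1ax, Eif3g and Eif5a.

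Around the 61 sites in 3′ UTRs, AATAAA, searched on the transcript strand only, lay within 20 nt of 25 (41.0%, 28.6 to 54.3), against 33.7% of 8679 sites of other genes and 4.68% of all positions in the same 3′ UTRs. The plain run AAAAAA was near 13.1% of them, against 12.0%. ATATAA was near 9.84%, against 12.1%, and the variant ATTAAA was near 1 site (1.64%), against 5.39%. Some of these windows overlap, as 77 exonic sites form 58 runs. With a window of 50 nt, either poly(A) signal was near 52.5%, against 54.5%. None of the 16 coding sites had any of the 4 hexamers within 20 nt. Taken as independent, they allow a share of up to 18.8% by 3 counts and 20.6% by the exact interval. Adjoining bases in Eif1ax, Eif3c, Eif3l, Eif3m and Eif5a share most of their window, so the true bound is higher. In other genes ATATAA was near 21.9% and AATAAA near 7.98% of coding sites, and no difference is read from this. The base deleted was A in 29 (47.5%) and T in 27 (44.3%) of the 61 3′ UTR sites, against 45.2% and 48.5% in other genes. It was A in 11 of the 16 coding sites (68.8%, 41.3 to 89.0), against 43.8%, which lies inside the interval.

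The distance from a 3′ UTR site to the next annotated transcript end had a median of 114 nt, against 122 nt in other genes. It was 54 nt over the 29 sites of eIF3 genes, whose 3′ UTRs are short, and 356 nt over the 32 sites of the other factor genes. Of the 61 sites, 30 lay within 100 nt of an end (49.2%, against 46.9%).

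The remaining 5 of the 82 sites in the spans of these genes lay in introns. At chr12:111544525 in Eif5, 59 of 60 tags were deleted (98.3%, and at least 91.1%), and at the next base 59 of 73, at 4 and 3 nt from the nearest exon and inside a peak of 193 tags. The other 3, in Eif1b, each had 3 of 3 tags deleted, lay 3 to 5 nt from an exon and were in no peak.

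The summed height was higher in genes of higher mRNA level, with a Spearman rho of 0.67 over the 35 factor genes and 0.66 over 9833 other protein-coding genes with a peak, given as a description. RPKM values share 1 pooled count and heights 1 pooled list, and genes are not independent replicates. On the scale log2((summed height + 1)/(RPKM + 1)), the factor genes had a median of 2.64, against 2.78 for all protein-coding genes. Per kb of exon, the medians were 1.01 and 1.14. The 35 genes as a whole were thus close to the middle of all genes, but within the quartiles of their own RPKM the 17 factor genes had 2.65 and 1590 other genes 2.05.

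**Figure D4:**
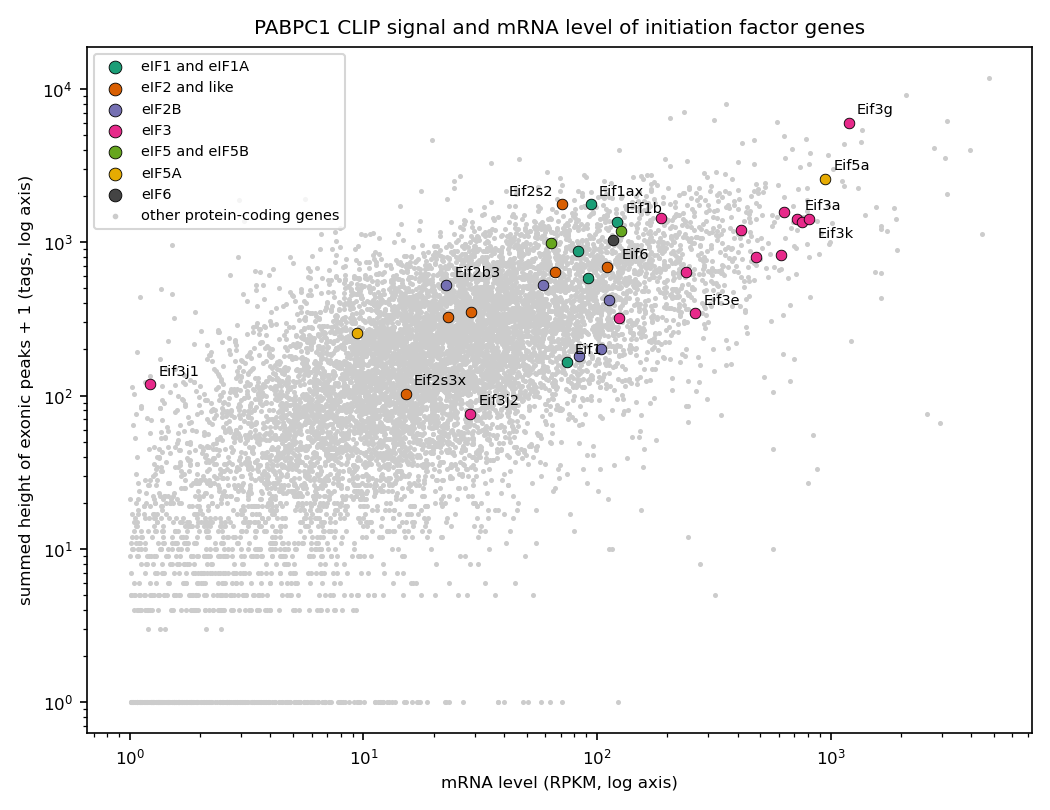
Summed height of exonic peaks plus 1 (tags, log axis) against RPKM (log axis), the 35 factor genes coloured by complex over the other protein-coding genes with an RPKM of at least 1 in grey. Most eIF3 genes lie to the right, at 124 to 1195 RPKM. Eif1ax and Eif2s2, the latter of uncertain RPKM, lie high in the cloud for their level.

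The 14 eIF3 genes had a median log2 ratio of 1.34 and the 21 other factor genes 3.22. Only Eif3f (2.92) and Eif3j1 (5.74, at 1.23 RPKM) of the eIF3 genes exceeded the median of all genes. The eIF3 genes held 72.7% of the RPKM of the 35 and 51.5% of their summed height. Because the ratio was lower in genes of higher RPKM, genes were also set side by side at a similar level. Between 201 and 695 RPKM, the quartiles of the eIF3 genes, the 6 eIF3 genes had a median of 1.03 and 385 other protein-coding genes 1.36. Between 58.7 and 110 RPKM, the quartiles of the other factor genes, the 11 factor genes had a median of 3.14 and 1001 other protein-coding genes 2.35. Of the 6 eIF3 genes, Eif3i (1.42) and Eif3l (1.53) lay above the median of the others, and Eif3e is among the genes of uncertain RPKM. So are Eif1 and Eif2s2 of the 11 other factor genes. At a similar level the median of the eIF3 genes thus lay below that of the other genes, over few genes, and that of the remaining factor genes above it. Per kb, these medians were -0.33 and 0.32 for eIF3 genes and others, and 1.30 and 0.98 for the remaining factor genes and others, so both kept their direction.

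The 5 lowest ratios among genes of at least 10 RPKM were all eIF3 genes, Eif3e at 0.37, Eif3d at 0.43, Eif3b at 0.74, Eif3k at 0.80 and Eif3h at 0.83. The 5 highest were Eif2s2 at 4.63, Eif2b3 at 4.47, Eif1ax at 4.22, Eif5b at 3.93 and Eif2d at 3.75. The extremes differed when height was taken per kb of exon, with Eif1b the highest of the 35 (3.42) and Eif3a the lowest (-1.36). Per kb, 4 of the 35 genes changed sides of the all-gene median of 1.14: Eif5b, with long exons, lay just below it (0.97), and Eif1ad (1.30), Eif3g (2.19) and Eif3i (1.25) lay above it. In 13 of the 35 genes, Eif3i and Eif2s2 among them, the RPKM gave whole reads on the length of all M21 exons, retained introns included. That length exceeded the length of the basic transcripts 3.30-fold in Eif3i and 2.66-fold in Eif2s2, so their RPKM understates the level per length of basic mRNA. With height and RPKM both on basic length, Eif3i stood at -0.47, back below the all-gene median, then 0.71. Eif2s2, at 1.88, stayed above it. This changes the length only, and the RPKM of Eif2s2 remains uncertain because of its copy Gm9892, listed at 265 RPKM. In the other 22 genes, Eif3d and Eif3e among them, no whole reads were recovered, and the length behind the RPKM is not known.

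**Figure D5:**
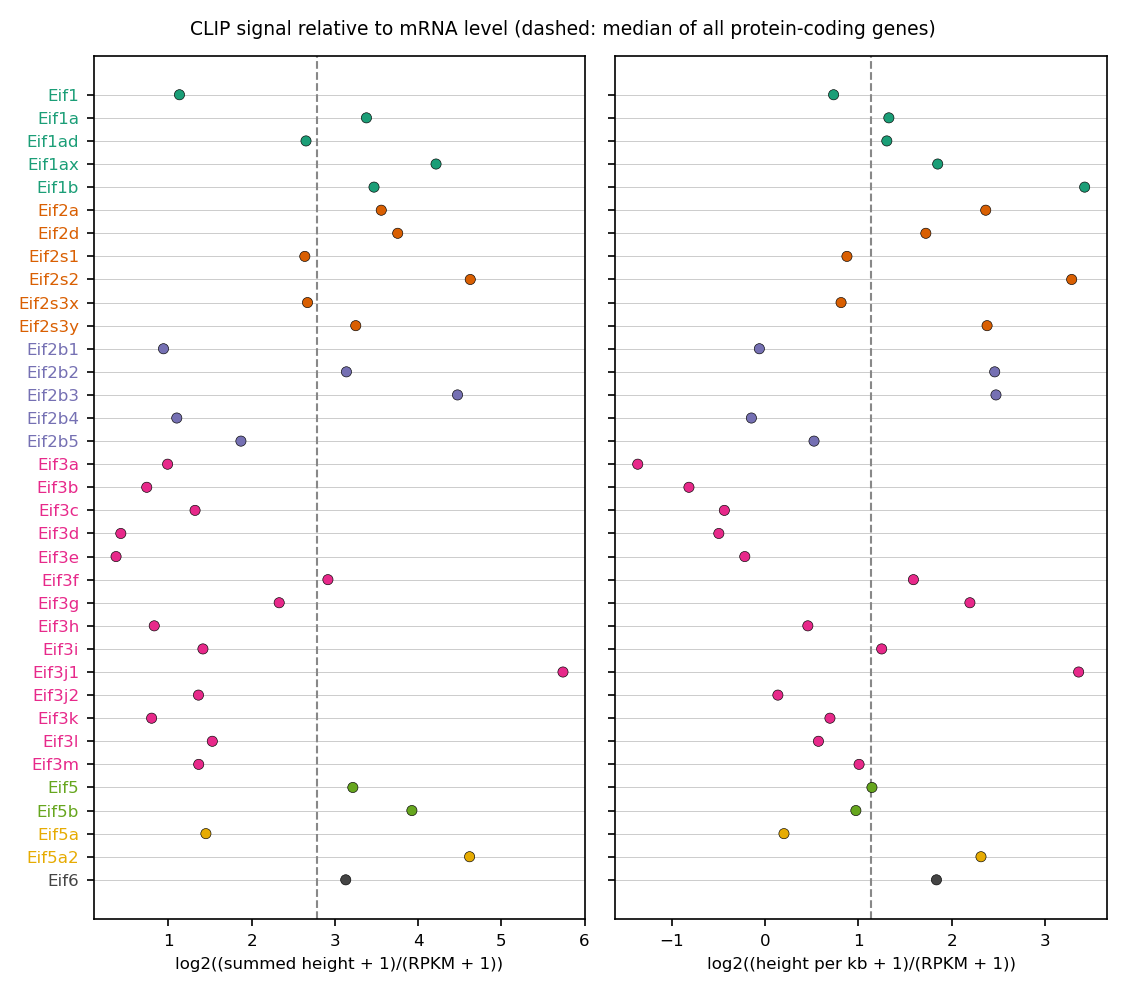
Log2 ratio of CLIP signal to mRNA level for each of the 35 genes, from summed height (left) and from summed height per kb of exon (right), coloured by complex, with the median of all protein-coding genes dashed. Most eIF3 genes lie left of the dashed line in both panels, and Eif3g lies left of it in the first and right of it in the second.

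Other genes of the pathway were taken from a list of 31: the cap-binding side, the eIF2 kinases and phosphatase subunits, and partners of the factors. Of these, 29 had an RPKM of at least 1, and all 29 held a peak. A deletion site was held by 21 (against 37.0% of all protein-coding genes) and a coding site by 7 (against 4.97%). Within the factor genes' RPKM quartiles those shares of all genes were 72.2% and 13.5%, and the 29 genes were not compared at a similar level. The median log2 ratio of the 29 genes was 2.71. By group, the ratio was 2.41 in 11 cap-binding genes, 2.79 in 6 eIF2 kinase and phosphatase genes and 2.69 in 12 partner genes. Of the 6 eIF2 kinase and phosphatase genes, 2 held a site. Eif4g2, which is like eIF4G without its PABPC1-binding end, had 7095 tags and 17 sites. Pabpc1 itself had 4385 tags, with its tallest peak in the 5′ UTR.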

How the data were processed

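The authors deposited 1 list of peaks and 1 list of deletion sites for the 3 CLIP-seq samples together, and 1 table of RPKM, with the mRNA-seq samples merged. Tools named in the submitters' processing notes, without roles or thresholds, were HTSeq 0.6.0, TopHat2 2.0.12, Novoalign 3.02.02 and cutadapt 1.4.2, and the build was mm10. The deposited peak signal, a whole-number score, was read as height in tags, since no site in a peak of these genes had more tags than the peak's height. The deletion list gives the authors' count of deleted tags and a second number, taken as the tags covering the base. The deposited RPKM, turned back into reads, gave whole numbers within 0.01 for all 4946 genes with a matching versioned identifier, and a pooled depth of 35251228 reads. No source used here gives the CLIP depth.

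Peaks (by midpoint) and sites were placed by strand on GENCODE M21 basic transcripts, in the order 3′ UTR, 5′ UTR, CDS, non-coding exon, intron, with 1-based coordinates. Placement was tested on simulated data. Copies were found with BLAST 2.17.0, and Python 3.11.15, pandas 2.3.3 and scipy 1.17.1 were used. The annotation held 98.4% of the gene identifiers. Ratios used a pseudocount of 1, which understates those of low genes. Named with full values were the 10 genes with the largest summed height, the 10 with the most deletions and the 5 largest and smallest ratios from 10 RPKM up. The members, lists and rules were chosen with earlier results of these data known. The split of eIF3 follows the textbook modules, chosen afterwards.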

Additional observations from a re-analysis of the deposited data

How the results depend on the processing

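All files pool their replicates, so no replicate could be left out and depth or batch per sample could not be checked. No paired analysis was possible because the files hold no value per replicate, although the labels number the replicates of both assays alike. Counts of genes with a peak stayed at 34 or 35 of 35 under every alternative run. With at least 20 deletions a site, 16 genes held a site (against 15.9% of all). The 3′ UTR share of peaks was 50.6% for peaks of at least 74 tags, 40.7% on all transcripts and 64.6% by summed height, and that of sites was 61.03% by deletions. The median log2 ratio stood above that of all genes, not below it, without an RPKM filter (2.64, against 2.30) and, in a choice made after seeing the data, among genes between the quartiles of the factor genes' RPKM (2.65, against 2.05). Relative to the all-gene median, Eif3g was 0.25 with the tallest peak, 1.06 per kb and 0.63 per kb on basic length, and Eif5b was -0.46, -0.16 and -0.056. The share of 3′ UTR sites near a poly(A) signal ran between 41.0% and 52.5%. The basic-length values rest on M21 lengths, which gave whole reads in 13 of the 35 genes. The causes were not tested.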
